A study of Sus scrofa with 25 samples.

Results

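The levels of 10 genes of fatty acid and triglyceride synthesis, of 25879 pig genes counted in every library, were followed in muscle RNA of 25 pigs. They were taken by symbol, through an Ensembl table that pairs gene identifiers with names, and each symbol matched 1 identifier. The genes were SREBF1, ACLY, ME1, ACACA, FASN, SCD, ELOVL5, ELOVL6, DGAT1 and DGAT2. The study fed vitamin D3 at 3 levels to crossbred pigs out of Polish Large White sows and by Landrace boars. The D5000 pigs (n = 8) received 5000 IU/kg of feed and the D10000 pigs (n = 9) 10000 IU/kg. The control pigs (n = 8) are entered here as 0 IU/kg, as their sample titles say control and give no dose. All pigs began the feed at day 85 of life and stayed on it for 90 days, on diets matched for protein and energy, with each litter spread over the diets. Neither the muscle nor the sex or litter of single pigs is known from the labels, and replicates are called by animal number.

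De novo lipogenesis builds fatty acids from the carbon of sugars. Citrate leaves the mitochondrion and is split into acetyl-CoA, which is carboxylated, polymerised into palmitate, then elongated, desaturated and esterified to triglyceride. In the pig the fat cell, rather than the liver, is known as the main site of this pathway, and muscle contains fat cells between its fibres. In bulk muscle RNA, fewer cells of a type and less RNA per cell cannot be told apart.

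Libraries held 6403176 to 11222949 gene counts in control, 4328704 to 12203803 in D5000 and 3310507 to 15177976 in D10000. The muscle label was met by skeletal actin, ACTA1, at 27735 to 213895 CPM (reads of a gene per 1000000 gene reads) in 24 libraries. D10000 replicate 27 stood apart with 10029 CPM of ACTA1, and each result that rests on it is given with and without it. Reads assigned to genes were under 45% in D10000 replicates 2 (28.4%) and 7 (38.2%) and in D5000 replicates 11 (43.8%) and 18 (24.9%). Liver transcripts were counted in every library: the summed level of 9 liver genes was 3364 to 22871 CPM in control, 3594 to 31602 CPM in D5000 and 3056 to 35862 CPM in D10000. The 3' libraries give about 1 read per transcript whatever its length, so CPM values of different genes refer to transcripts ending at an annotated 3' end.

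Of the 10 genes, 9 passed the filter on low counts, and the same 9 passed it without D10000 replicate 27. Only DGAT2, 1 of the enzymes of the last step of triglyceride synthesis, did not: it had 11 reads in all 25 libraries together. Control replicate 16 held 6 of them, control replicate 28 held 2, D5000 replicate 18 held 1 and D10000 replicate 27 held 2. The pooled rate was 0.119 CPM in control (exact Poisson 95% interval 0.0512 to 0.234), 0.0159 CPM in D5000 (0.000403 to 0.0886) and 0.0232 CPM in D10000 (0.00281 to 0.0839). Without replicate 27 the D10000 libraries held 0 reads, with an upper limit of 0.0503 CPM, just under the lower limit of the control. The control reads came from 2 of 8 libraries, so the intervals pooled over a diet do not hold the spread between pigs, and the diets were not tested for this gene. In a single library a count of 0 allows up to 0.198 to 0.906 CPM. These intervals and limits cover counting error only.

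SREBF1 encodes SREBP-1, the transcription factor that turns on genes of fatty acid synthesis. Its level (lowest, median and highest library) was 9.80, 31.6 and 61.5 CPM in control, 20.3, 42.7 and 101 CPM in D5000, and 24.2, 61.3 and 99.3 CPM in D10000 without replicate 27. Replicate 27 itself had 22.6 CPM, the 21st highest of 25 and the lowest of its diet. The medians lie in the order of the doses, while the 3 groups overlap.

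The enzymes that supply acetyl-CoA and reducing power were low in most libraries. ACLY cleaves citrate into the acetyl-CoA used for synthesis, and its lowest, median and highest levels were 3.90, 7.89 and 13.7 CPM in control, 3.16, 5.50 and 27.7 CPM in D5000, and 3.62, 7.46 and 39.6 CPM in D10000 without replicate 27. ME1 encodes cytosolic malic enzyme, a source of NADPH, and had 8.64, 17.8 and 32.3 CPM in control, 4.90, 9.12 and 22.04 CPM in D5000, and 5.44, 18.3 and 24.3 CPM in D10000 without replicate 27. The D5000 group had the lowest median of both genes, and its range overlapped the other ranges. In replicate 27, ACLY reached 843 CPM and ME1 156 CPM, above every other library.

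Acetyl-CoA carboxylase and fatty acid synthase form the chain itself. ACACA makes malonyl-CoA, the committed step, and its lowest, median and highest levels were 3.39, 12.0 and 24.2 CPM in control, 7.72, 17.2 and 58.4 CPM in D5000, and 3.57, 11.0 and 52.1 CPM in D10000 without replicate 27. FASN, which assembles palmitate, had 34.9, 87.9 and 173.5 CPM in control, 44.8, 107.3 and 164.7 CPM in D5000, and 46.02, 99.4 and 273.9 CPM in D10000 without replicate 27. The 3 diets overlapped over most of their ranges for both genes. Replicate 27 had 541 CPM of ACACA and 4870 CPM of FASN.

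Elongases and the desaturase adjust the length and saturation of the product. SCD places the first double bond in stearate and palmitate, and its lowest, median and highest levels were 46.6, 122 and 187 CPM in control, 103, 146 and 442 CPM in D5000, and 66.7, 140 and 446 CPM in D10000 without replicate 27. ELOVL6, which lengthens palmitate to stearate, had 40.8, 79.3 and 211 CPM in control, 67.7, 93.3 and 274 CPM in D5000, and 42.6, 92.2 and 314 CPM in D10000 without replicate 27. ELOVL5, an elongase of polyunsaturated fatty acids, had 13.7, 33.7 and 87.1 CPM in control, 18.0, 36.2 and 125 CPM in D5000, and 21.4, 30.9 and 116 CPM in D10000 without replicate 27. In SCD, 3 D5000 and 3 of the other 8 D10000 libraries lay above the highest control library, and the remaining ones lay among the controls. Of those above, D5000 replicates 11 and 18 and D10000 replicates 2 and 7 had under 45% of reads assigned. D5000 replicate 25 (65.5%) and D10000 replicate 21 (47.6%) did not, and the lowest control share was 45.1%. The part of the assigned share in these SCD levels was not tested. Replicate 27 had 8332 CPM of SCD, 641 CPM of ELOVL5 and 585 CPM of ELOVL6.

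DGAT1, the other enzyme that joins the last fatty acid to diacylglycerol, was the lowest of the 9 genes that passed. It had 1.34, 4.54 and 10.5 CPM in control, 1.56, 4.24 and 11.3 CPM in D5000, and 2.76, 4.95 and 8.38 CPM in D10000 without replicate 27, against 128 CPM in replicate 27. Over the 24 other libraries SCD had the highest median of the 9 genes (132 CPM), followed by FASN (99.4 CPM) and ELOVL6 (85.7 CPM), and the ranges of these 3 genes overlapped. ACACA (12.0 CPM), ACLY (6.84 CPM) and DGAT1 (4.50 CPM) had the lowest medians, and their ranges overlapped too.

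**Figure D1:**
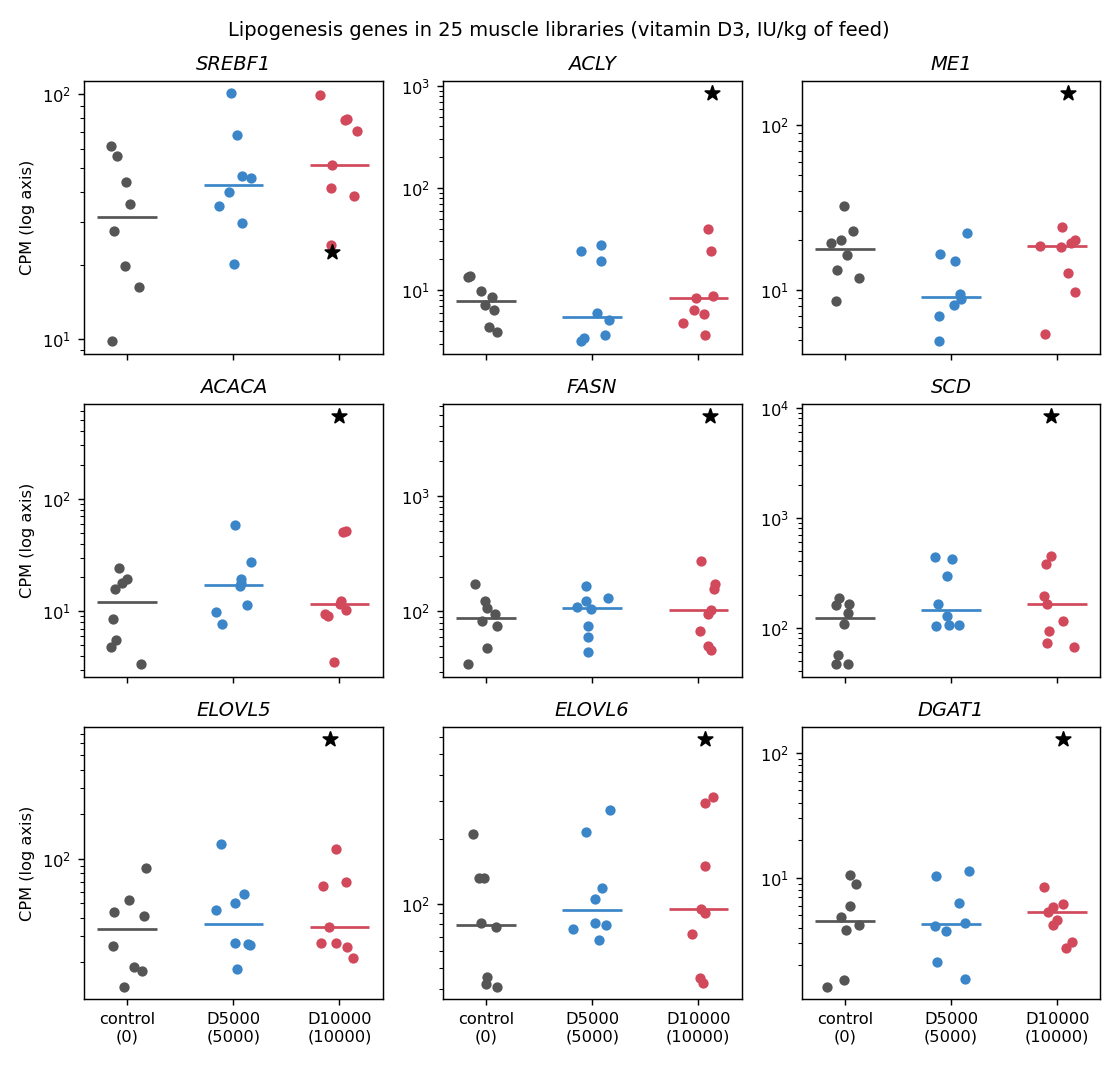
Level of each of the 9 genes in CPM (log axis) by dietary vitamin D3, with 1 point per library, a bar at the median of each diet (all 9 libraries for D10000), and a star for D10000 replicate 27. The star is above all other points in 8 panels, for example at 8332 CPM for SCD, and at the bottom of its group in SREBF1, while the other points of the 3 diets overlap.

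The same few libraries were high for many of the genes. In D5000, replicate 18 was the highest library for FASN, SCD, ACACA, ACLY, ELOVL5 and SREBF1. Of the D10000 libraries other than replicate 27, replicate 7 was highest for FASN, ACACA and ELOVL5, replicate 2 for SCD and ELOVL6 and replicate 20 for ACLY and SREBF1. Control replicate 23 was highest among controls for FASN, ACACA, ACLY, ELOVL5, ELOVL6 and DGAT1, and control replicate 16 was lowest for FASN, SCD, ACACA, ELOVL6 and SREBF1. D5000 replicate 18 (31602 CPM), D10000 replicate 7 (35862 CPM) and control replicate 23 (22871 CPM) also had the highest summed liver transcripts of their diets, and the first 2 are among the libraries with few assigned reads. This did not hold for D10000 replicate 20 (5808 CPM of liver transcripts, 65.0% assigned) and D5000 replicate 25 (3594 CPM, 65.5%). The mean log2 CPM of the 9 genes was 5.61 and 5.52 in these, against 5.53 in D10000 replicate 7 and 5.34 in D5000 replicate 18. The part of these features in the levels was not tested by itself.

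D10000 replicate 27 differed from the other 24 libraries in the lipogenic enzymes and in fat cell transcripts together. ACLY stood at 123 times the median of the other libraries and at 21.3 times the highest of them. SCD stood at 63.1 times that median, FASN at 49.0 times, ACACA at 45.1 times, DGAT1 at 28.6 times and ELOVL5 at 20.7 times. ME1 (9.88 times) and ELOVL6 (6.82 times) lay closer to the rest, ELOVL6 at 1.86 times the next highest library. SREBF1, the regulator of these enzymes, was not raised with them, at 0.532 of the median of the others. Of the 9 genes, 8 were past 4-fold higher, against 16% of all genes with a ratio, and the same 8 exceeded all 24 libraries, against 22.6% of genes tested. This is 1 library set against 24, with no replicate of its kind, so the difference has no test.

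Fat cell genes were of similar size in that library. ADIPOQ, which encodes adiponectin, had 1234 CPM in replicate 27 and 0.651 to 52.9 CPM in the other 24. TRARG1, a regulator of glucose transporter traffic in fat cells, had 4680 CPM against 0.312 to 20.1 CPM. The fat droplet gene CIDEC had 805 CPM against 0 to 14.6 CPM, PLIN1, the coat protein of fat droplets, 102 CPM against 0 to 4.93 CPM, and the fatty acid carrier FABP4 1944 CPM against 7.85 to 110 CPM. LEP, which encodes leptin, had 83.9 CPM against 0 to 2.11 CPM. With replicate 27 included 12 adipocyte genes passed the filter, and 11 passed without it, so the list itself rests in part on that library. Of the 12, 10 were past 4-fold higher, against 16% of all genes with a ratio. Their median ratio was 49.96, against a median of 1.27 over all genes. GPD1 (0.895 times) and PCK1 (0.250 times), which muscle and liver also express, were not. The summed level of the 16 adipocyte genes was 15596 CPM in replicate 27 and 858 to 2021 CPM in the others. Muscle fibre genes ran the other way, with 13934 CPM summed over 11 genes in replicate 27 and 70082 to 259122 CPM in the others. Fibroblast genes summed to 7171 CPM in replicate 27 and 673 to 2918 CPM in the others, and liver genes to 3056 CPM and 3364 to 35862 CPM. The part of each in the lipogenic levels was not tested.

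Pathway neighbours of the 10 genes showed where replicate 27 was high. Among 30 tested genes of fatty acid chain handling and precursor supply, 16 were past 4-fold higher and 3 past 4-fold lower, with a median ratio of 4.61. Over all genes, 1763 of 10987 with a ratio (16%) were past 4-fold higher and 916 past 4-fold lower. TALDO1 and TKT, enzymes of the non-oxidative pentose phosphate pathway, stood at 31.2 and 25.0 times the median, and SLC25A1, the carrier that exports citrate from the mitochondrion, at 25.1 times. The desaturases of polyunsaturated acids were not among these, with FADS1 at 2.27 times and FADS2 at 0.298 of the median. In glycerolipid assembly and breakdown, 8 of 20 genes were past 4-fold higher and 1 lower, with a median of 2.73, led by the lipases MGLL (28.5 times) and PNPLA2 (25.6 times).

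Regulators and the sterol pathway had medians close to that of all genes in that library, with single genes far to either side. Of 25 regulators of lipogenesis 4 were past 4-fold higher and 7 past 4-fold lower, with a median ratio of 1.15. Of all 10987 genes with a ratio, 1763 (16%) were past 4-fold higher and 916 past 4-fold lower, with a median of 1.27. MLXIPL, which encodes the carbohydrate-responsive factor ChREBP, had 224 CPM in replicate 27 against 5.92 to 37.3 CPM in the others, or 16.8 times the median. SREBF2, the relative of SREBF1 that drives sterol genes, stood at 1.75 times the median and INSIG1, the sterol-responsive anchor of both, at 1.64 times. MID1IP1, a partner that activates acetyl-CoA carboxylase, stood at 0.199 of the median. Of 21 genes of cholesterol synthesis 2 were past 4-fold higher and 1 lower, with a median of 1.30.

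**Figure D2:**
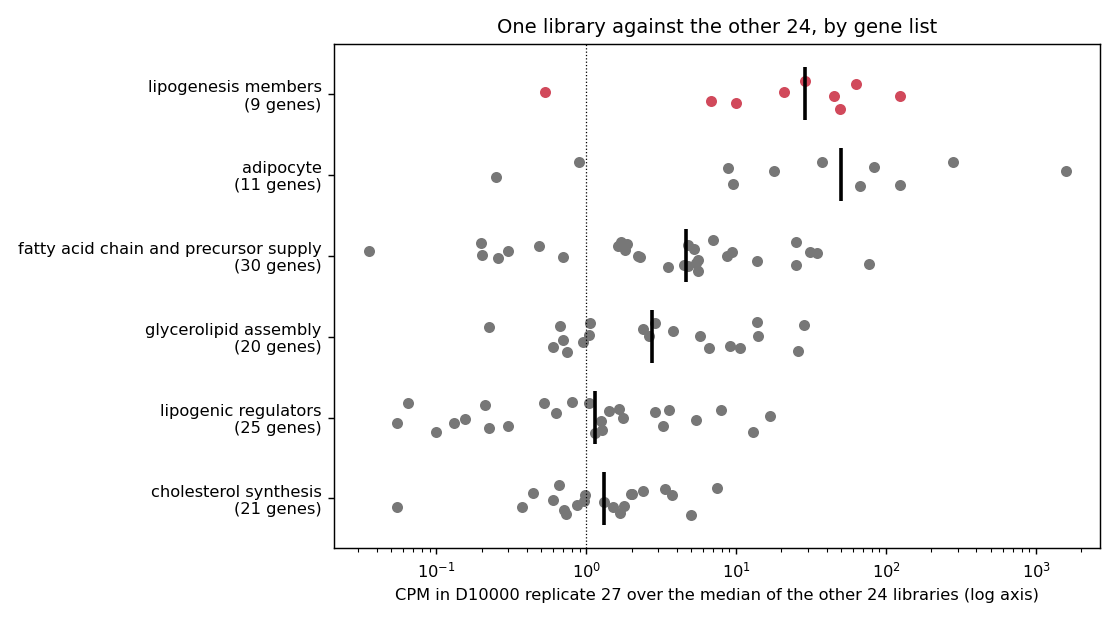
Ratio of CPM in D10000 replicate 27 to the median of the other 24 libraries (log axis), with 1 point per gene and a bar at the median of each list; PLIN1, whose median was 0.0651 CPM, is not drawn but counts in its list's median. Lipogenesis genes (median 28.6) lie with the adipocyte genes (median 49.96), while regulators (1.15) and cholesterol synthesis (1.30) lie around 1. Of the adipocyte list 12 genes passed the filter with replicate 27 and 11 without it.

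Diet was compared with edgeR's quasi-likelihood test over 10992 genes, all 25 libraries in 1 fit, with p adjusted by the Benjamini-Hochberg method. Differences are log2 fold changes with the standard error (SE) of the fit, or their 95% intervals. No lipogenesis gene, and none of the 10992, had an adjusted p under 0.05 in any of the 3 contrasts by edgeR (0% called), limma voom or DESeq2. At an unadjusted p under 0.05, edgeR had 263 genes in D10000 against control, 372 in D5000 against control and 323 in D10000 against D5000. For limma voom these were 217, 401 and 312 genes, and for DESeq2 339, 510 and 393. In a joint test of both doses edgeR called 0 genes, with 292 at an unadjusted p under 0.05. Without replicate 27 edgeR again called 0 genes in each, and the genes at an unadjusted p under 0.05 were 191 in D10000 against control, 473 in D5000 against control, 221 in D10000 against D5000 and 225 in the joint test. In that joint test SREBF1 had an unadjusted p of 0.0484 without replicate 27 and 0.147 with it (edgeR adjusted p 0.9981 and 0.9997). The labels do not say more of the pigs than their animal numbers, so the p-values measure the spread between these 25 samples.

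For D10000 against control, with all libraries, the largest differences were in the enzymes. ACLY differed by 3.21 ± 1.01 (SE), SCD by 2.86 ± 0.82, FASN by 2.47 ± 0.73, ACACA by 2.29 ± 0.74 and DGAT1 by 1.63 ± 0.62. ELOVL5 differed by 1.36 ± 0.50, ELOVL6 by 0.73 ± 0.37, SREBF1 by 0.64 ± 0.32 and ME1 by 0.55 ± 0.47, each with an edgeR adjusted p of 0.9997. All 9 fitted values were above 0, against 57.2% of genes tested. Of the 9, 6 had an unadjusted p under 0.05 and a higher level in D10000, against 2.1% of genes. The median over the 9 was 1.63, against 0.07 over all genes.

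Those sizes came with 1 library. Without replicate 27 the D10000 difference from control was 0.47 ± 0.52 for ACLY, 0.49 ± 0.38 for SCD, 0.25 ± 0.30 for FASN, 0.41 ± 0.41 for ACACA and −0.03 ± 0.44 for DGAT1. ELOVL5 stood at 0.25 ± 0.31, ELOVL6 at 0.35 ± 0.32 and ME1 at −0.22 ± 0.37. Of the 9 fitted values 7 were above 0, against 51.8% of 10876 genes, and their median was 0.35, against 0.02 over all genes. The 95% interval of FASN ran from −0.35 to 0.85 and that of SCD from −0.30 to 1.27, so these libraries allow either sign for both genes.

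SREBF1 was the 1 gene whose D10000 difference from control was larger without replicate 27, at 0.77 ± 0.30 (95% interval 0.16 to 1.38). Its unadjusted p was 0.0146 and its edgeR adjusted p 0.9987, and 1.28% of all genes had an unadjusted p under 0.05 and a higher level in this fit. Of the 8 D10000 libraries, 7 lay above the control median and 4 above the highest control, yet the groups overlapped. Leaving out 1 of the 25 libraries in turn kept its fitted value between 0.43, without D10000 replicate 20, and 0.79, without control replicate 9.

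In D5000 against control the 95% intervals of all 9 fitted values held 0, with all libraries. SCD differed by 0.91 ± 0.78, ACACA by 0.61 ± 0.73, SREBF1 by 0.42 ± 0.33, ACLY by 0.39 ± 0.96 and ELOVL6 by 0.35 ± 0.38. ELOVL5 differed by 0.23 ± 0.50, DGAT1 by 0.10 ± 0.63, FASN by 0.10 ± 0.70 and ME1 by −0.59 ± 0.48, each with an edgeR adjusted p of 0.9986. Of the 9, 8 were above 0, against 51% of genes, with a median of 0.35 against 0.01 over all genes. That median was 0.14 with the assigned share as a covariate, 0.59 with the mean of the adipocyte genes, and, without replicate 27, 0.19 with the adipocyte mean and 0.17 with the liver mean. With diet alone but without replicate 27, which belongs to neither group but widens the shared spread, SCD stood at 0.92 ± 0.39, with an unadjusted p of 0.0234 and an edgeR adjusted p of 0.9344. In that fit 1 of the 9 genes and 2.85% of all genes had an unadjusted p under 0.05 and a higher level in D5000, and 8 of the 9 genes and 51.7% of all genes had a fitted value above 0. With all libraries but D5000 replicate 25, SCD stood at 0.50.

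**Figure D3:**
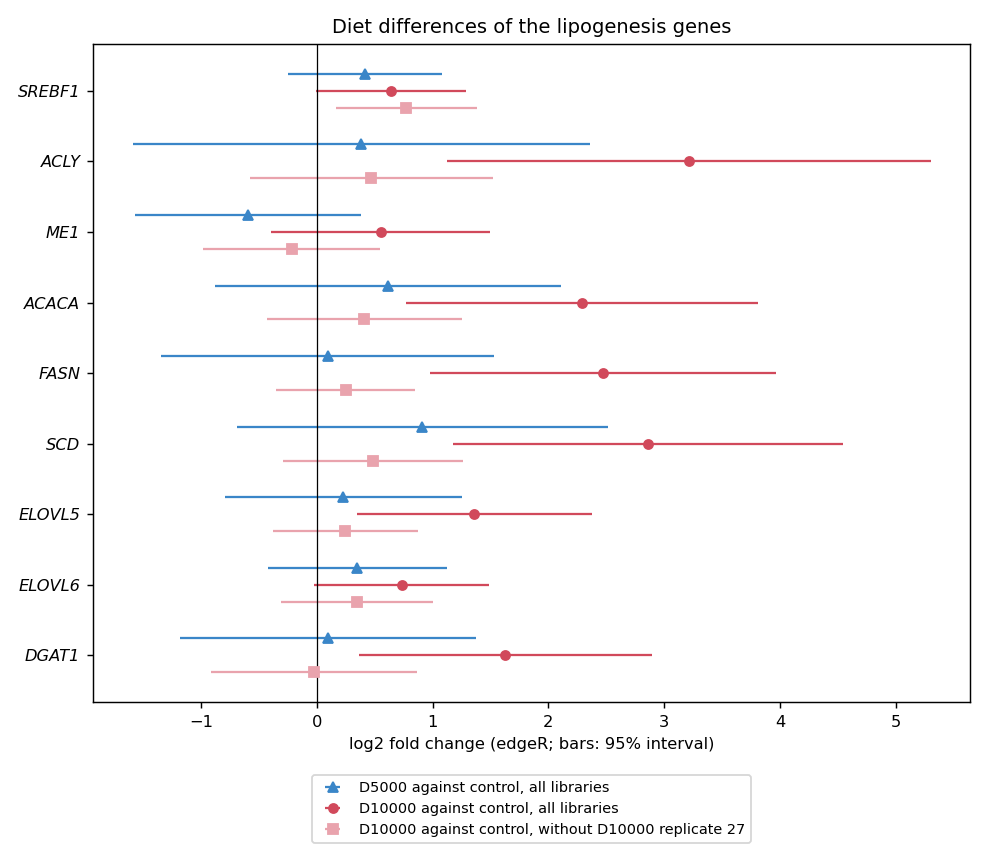
Log2 fold change of each gene (point) with its 95% interval (bar) for D5000 against control and for D10000 against control with and without D10000 replicate 27. The values for D10000 with all libraries reach 3.21 (ACLY) and those without replicate 27 stay between −0.22 (ME1) and 0.77 (SREBF1).

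The 2 supplemented diets also differed mainly through replicate 27. For D10000 against D5000, all 9 fitted values were above 0, against 54.6% of genes, with a median of 1.53 and values up to 2.83 ± 0.99 for ACLY and 2.38 ± 0.73 for FASN (edgeR adjusted p 0.9985). At an unadjusted p under 0.05, 7 genes were higher in D10000, against 2.11% of genes. Without replicate 27, 5 of 9 were above 0, against 50% of genes, with a median of 0.01, and SCD stood at −0.43 ± 0.38. At an unadjusted p under 0.05, 0 of the 9 were then higher in D10000, against 0.883% of genes. D10000 and D5000 are both compared with the same control libraries, so their differences from control are not independent of each other.

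The wider pathway did not move with diet past the threshold either. In D10000 against control with all libraries, edgeR called 0 of 30 genes of fatty acid chain and precursor supply, 0 of 20 of glycerolipid assembly, 0 of 25 regulators and 0 of 21 of cholesterol synthesis. At an unadjusted p under 0.05 these lists had 7, 0, 1 and 1 higher genes, against 2.1% of all genes. Their median log2 fold changes were 0.36, 0.34, 0.13 and 0.30, against 0.07 over all genes, and without replicate 27 they were 0.06, −0.09, 0.10 and 0.26, against 0.02. TALDO1 differed by 1.72 ± 0.60 with replicate 27 and by −0.12 ± 0.24 without it, and TKT by 1.43 ± 0.57 and −0.11 ± 0.29. MLXIPL differed by 1.24 ± 0.50 and 0.19 ± 0.35, and MGLL by 1.29 ± 0.69 and −0.54 ± 0.37. The lipase PNPLA2 differed by 0.86 ± 0.66 and −0.48 ± 0.45, the kinase AKT2 by 0.51 ± 0.35 and −0.12 ± 0.23, and FITM1, which helps to form fat droplets, by −1.42 ± 0.70 and −1.26 ± 0.71.

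For D5000 against control, TRIB1, a pseudokinase that acts on lipogenic factors in the liver of mice, had the smallest p of the regulators. Its lowest, median and highest levels were 67.4, 151 and 273 CPM in D5000, against 28.1, 60.2 and 103 CPM in control, a difference of 1.20 ± 0.35 (edgeR adjusted p 0.9986). All 21 genes of cholesterol synthesis had fitted values above 0 in D5000 against control, against 51% of genes tested, with a median of 0.44 against 0.01 over all genes. Of the 21, 3 had an unadjusted p under 0.05 and a higher level in D5000, against 2.15% of genes. Among them TM7SF2, a sterol reductase, differed by 1.60 ± 0.76 at a low level. Its lowest, median and highest levels were 0, 4.92 and 36.3 CPM in D5000, against 1.23, 2.82 and 9.53 CPM in control. The D5000 range thus held the whole control range. All 8 tested liver genes were also above 0 in this contrast, with a median of 0.49.

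Fat cell transcripts varied among the other 24 libraries too, and each gene's slope on them was fitted within diets. The measure was the mean log2 CPM of the 12 adipocyte genes that passed the filter with all 25 libraries. A slope is the log2 change of a gene per log2 unit of that mean. The 12 include GPD1 and PCK1, which muscle and liver also express, at medians of 679 and 183 CPM in the 24 libraries. They also include PLIN1, at a median of 0.0651 CPM, so the mean is not a measure of fat cells alone. ME1 had the steepest slope, 0.80 ± 0.21 (edgeR adjusted p 0.2153), and ACLY had 0.47 ± 0.28 and SCD 0.30 ± 0.21. DGAT1 (0.13 ± 0.37), FASN (0.11 ± 0.18), SREBF1 (−0.08 ± 0.20), ACACA (−0.21 ± 0.28), ELOVL5 (−0.27 ± 0.20) and ELOVL6 (−0.28 ± 0.21) lay on both sides of 0. Of the 9 genes 0 had an adjusted p under 0.05, against 0.00919% of all genes, which is FABP4 alone, a gene of the measure itself. At an unadjusted p under 0.05 edgeR had 1532 genes, and ME1 was the 1 lipogenesis gene among them, with a positive slope as 6.74% of all genes had; limma voom called 3 genes, none of the 9. Without D5000 replicate 25, which has the highest adipocyte mean of the 24, the slope of SCD was −0.31 and that of ACLY −0.07. The share of reads assigned to genes moved with these values too. With it as a second covariate the slope was 0.94 ± 0.19 for SCD (edgeR adjusted p 0.0835) and 0.65 ± 0.25 for ACACA (0.9996). All 9 slopes were then above 0, against 5725 of 10876 genes, with a median of 0.35. With the mean of the liver genes as second covariate 8 of 9 were above 0, against 5461 genes. With the mean of the muscle fibre genes 6 of 9 were, against 5555 genes.

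With replicate 27 included, 7 of the 9 slopes passed the threshold, against 6.12% of genes with a positive call. The slopes were then 1.05 ± 0.15 for ACLY, 0.89 ± 0.12 for SCD, 0.86 ± 0.11 for FASN, 0.81 ± 0.13 for DGAT1, 0.74 ± 0.13 for ACACA, 0.69 ± 0.10 for ME1 and 0.51 ± 0.11 for ELOVL5 (edgeR adjusted p from 1.5e-06 to 0.0023). ELOVL6 (0.24 ± 0.11) and SREBF1 (−0.27 ± 0.14) did not pass. The relation of the enzymes to fat cell genes over all libraries thus rests on 1 library.

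Liver transcripts were related to other members of the group, a comparison added after the data were seen. Over the 24 libraries the slope on the mean log2 CPM of 8 liver genes was 0.62 ± 0.13 for ELOVL6 (edgeR adjusted p 0.00066), 0.59 ± 0.12 for ELOVL5 (0.00065) and 0.62 ± 0.19 for ACACA (0.0218). FASN (0.20 ± 0.14), DGAT1 (0.18 ± 0.23), SCD (0.14 ± 0.20) and SREBF1 (0.12 ± 0.16) did not pass, nor did ACLY (−0.37 ± 0.23) and ME1 (−0.49 ± 0.19, adjusted p 0.064). Of the 9 genes, 3 passed with a positive slope, against 10.7% of all genes, and 0 with a negative one, against 7.15%. Fitted slopes were above 0 in 7 of 9, against 47.2% of genes. ACACA had an adjusted p of 0.0779 without D10000 replicate 7, and ME1 passed with a negative slope when control replicate 16, 17 or 28 or D5000 replicate 29 was left out. SCD passed with a slope of 0.58 when D5000 replicate 25 was left out. With replicate 27 included, the slopes of ACACA (−0.52) and ELOVL5 (−0.24) changed sign and did not pass, ELOVL6 (0.11) did not pass, and ACLY, SCD and ME1 passed with negative slopes.

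Genes of the neighbouring pathways had slopes on the liver transcripts too. Over all genes tested 10.7% passed with a positive slope and 7.15% with a negative one. Of 21 genes of cholesterol synthesis 15 passed with a positive slope, for example LSS (0.97), DHCR7 (0.96), MVK (0.94) and SQLE (0.74). Among the 30 genes of fatty acid chain and precursor supply, 10 passed with a positive slope and 3 with a negative one. The desaturases FADS1 (0.82) and FADS2 (0.72), the acyl-CoA synthetase ACSL5 (0.67) and THRSP (0.66), a nuclear protein of lipogenic tissues, were positive, and HACD1 (−0.70), an elongation enzyme of muscle, was negative. Of 25 regulators 3 passed with a positive slope, MLXIPL (0.74), INSIG1 (0.54) and SREBF2 (0.44), and 3 with a negative one. The negative slopes were those of MLXIP (−0.61), NR1H2 (−0.57) and STRADB (−0.51). Reads assigned to genes move with the liver transcripts: with the assigned share as a second covariate 0 of the 9 genes passed and 419 genes did in all, against 1947 without it. ELOVL5 then had 0.36 ± 0.15 (adjusted p 0.2488), ELOVL6 0.29 ± 0.15 (0.4333) and ACACA 0.14 ± 0.23 (0.8825).

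**Figure D4:**
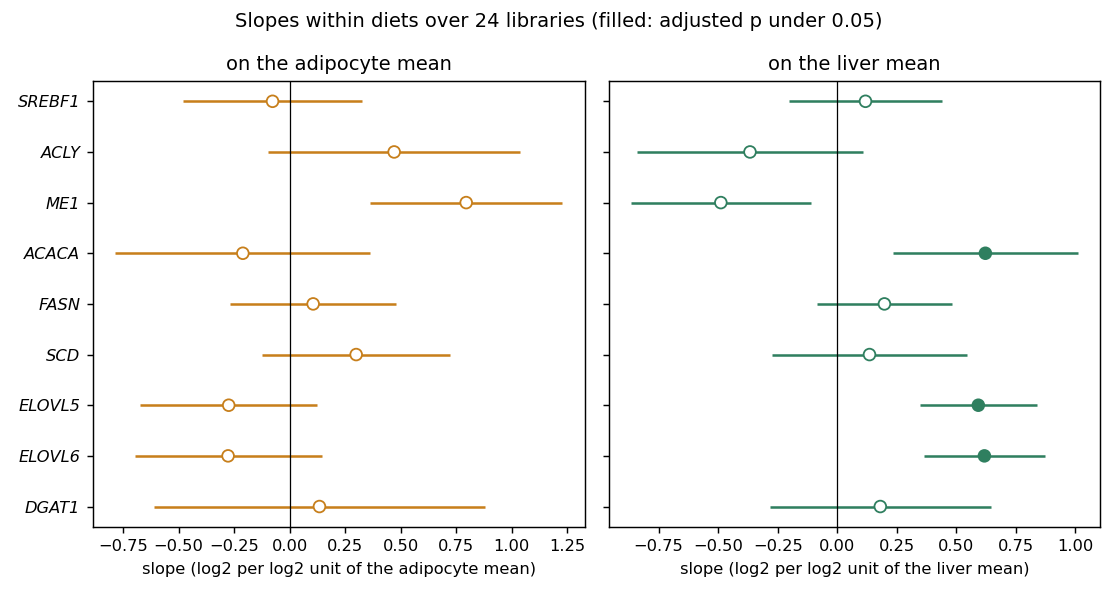
Slope of each gene on the mean of the adipocyte genes (left) and of the liver genes (right) within diets over the 24 libraries without D10000 replicate 27, as log2 per log2 unit, with 95% intervals; filled points have an adjusted p under 0.05. On the left ME1 is highest at 0.80 with no point filled, and on the right ELOVL6, ELOVL5 and ACACA are filled at 0.62, 0.59 and 0.62.

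The genes of chain building and desaturation moved together within diets. Pearson r was computed for all 36 pairs over the 24 libraries, on log2 CPM centred by diet, with permutations within diets and p adjusted over the 36 pairs. All libraries share the differences in depth and assigned share described above. ELOVL5 and ELOVL6 were the closest pair (r = 0.76 with permutation p 5e-05 and adjusted p 0.0016; rho = 0.80 with p 3e-05 and adjusted p 0.00054). SCD with ELOVL6 had r = 0.74 and rho = 0.85 (adjusted permutation p 0.0016 and 0.00036), SCD with FASN r = 0.71 and rho = 0.68 (0.0029 and 0.0050), and FASN with SREBF1 r = 0.70 and rho = 0.69 (0.0031 and 0.0043). Of the 36 pairs, 10 had an adjusted permutation p under 0.05, all with a positive r, and they joined FASN, SCD, ACACA, ELOVL5 and ELOVL6 to each other except ACACA with FASN, plus FASN to SREBF1. Over all 36 pairs the median r was 0.23 and 30.6% were over 0.5, against 0.005 and 5.77% over all pairs of genes.

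Leaving out the pair of libraries farthest from the median of 1 gene of the pair gave r = 0.76 for ELOVL6 with ELOVL5, 0.67 for ELOVL6 with SCD, 0.72 for SCD with FASN and 0.52 for SREBF1 with FASN. Without the 4 libraries with few assigned reads these were 0.84, 0.67, 0.69 and 0.76 (n = 20). ACACA was closest to ELOVL5 (r = 0.63) and ELOVL6 (r = 0.62), and 0.48 and 0.49 without those 4 libraries.

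No pair of ME1 or DGAT1 passed the threshold over the 24 libraries. ME1 had r = −0.48 with ELOVL6 (adjusted permutation p 0.0649), which was −0.23 without the 2 libraries farthest in ME1 and 0.11 without the 4 libraries with few assigned reads. Without those 4 libraries the r of ME1 was 0.62 with SCD and 0.35 with FASN, against −0.05 and −0.03 with them, and −0.53 with DGAT1, against −0.05. Its place among the genes thus depends on these libraries. Over the 24 libraries r with the mean of the other tested members was 0.83 for FASN, 0.70 for ELOVL5, 0.63 for SCD, 0.58 for SREBF1, 0.51 for ELOVL6, 0.45 for ACACA and 0.33 for ACLY, given as a description. It was −0.02 for DGAT1 and −0.18 for ME1. DGAT1, at 12 to 91 reads per library in these 24, has more counting error than the others.

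**Figure D5:**
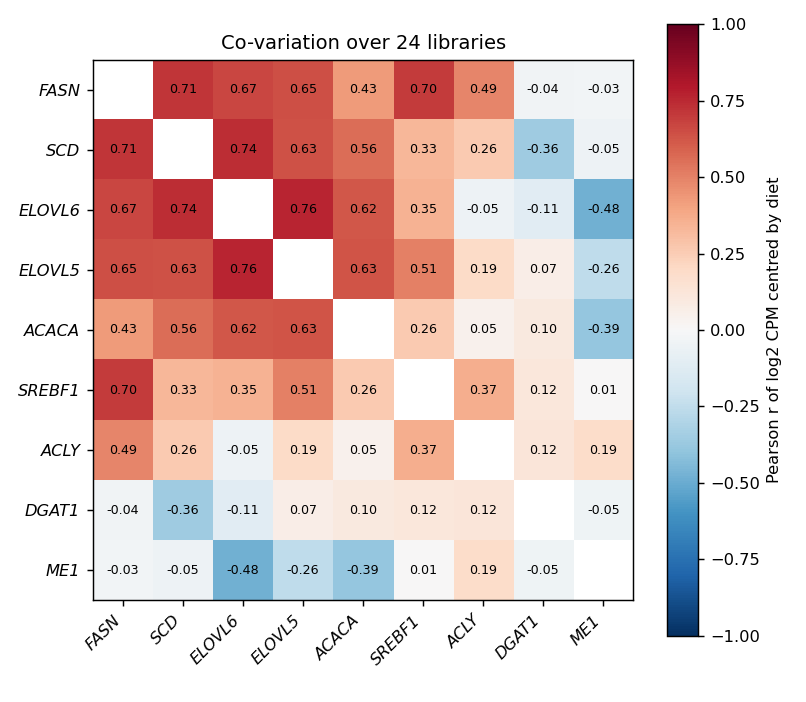
Pearson r between the 9 genes over the 24 libraries without D10000 replicate 27, on log2 CPM centred by diet; the colour and the number give r. A block of FASN, SCD, ELOVL6, ELOVL5 and ACACA holds values of 0.43 to 0.76, and the columns of DGAT1 and ME1 hold values of −0.48 to 0.19.

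Among the genes elsewhere in the table most like the mean of the 9 members in these 24 libraries were CAMK2N1 (r = 0.73), SLC4A4 (0.70), ELL2 (0.69), PSPC1 (0.68), FBXO11 (0.68), RUSF1 (0.67) and a gene with no symbol, ENSSSCG00000035114 (0.67). This is a description over 24 libraries, which share the depth and assigned share of each library.

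Spread between pigs of a diet differed among the genes as well. Without replicate 27 the biological coefficient of variation of edgeR was 0.42 for FASN and SREBF1, 0.44 for ELOVL5, 0.45 for ELOVL6, 0.52 for ME1, 0.53 for SCD, 0.57 for ACACA and DGAT1 and 0.70 for ACLY. The median over all genes was 0.54, so ACLY lay above that median and FASN and SREBF1 below it. With replicate 27 it was 1.18 for ACLY, 0.99 for SCD and 0.91 for FASN, against a median of 0.59 over all genes.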

How the data were processed

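RNA was isolated with a Total RNA Mini kit (A&A Biotechnology) and 3' libraries were made with the QuantSeq FWD kit of Lexogen, per the labels' protocols. The deposited values are raw counts, reads assigned to each Ensembl gene of the pig with 1 file per animal, without normalization by the authors. FastQC is named in the submitters' processing notes; the aligner, counting program, build and annotation are not given in the sources used here. Of the reads listed 24.9% to 70.6% were assigned to genes, and summary lines and spike-in rows stayed out of library sizes. Of 25880 pig identifiers, 1 was missing from 1 file and 25879 were analysed. No coordinates or sequences were used. No 2 libraries agreed within sampling noise.

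CPM are counts over the gene total of a library. Tests used edgeR 4.0.16 in R 4.3.3 with TMM scaling, filterByExpr (minimum count 10, minimum total 15; 10992 genes, or 10876 without D10000 replicate 27), glmQLFit (robust) and glmQLFTest, diet as the only term, and a threshold of 0.05. Log2 CPM for list means and correlations have a prior count of 2; fold changes have a prior count of 0.125. Correlations had 100000 permutations within diets. Alternatives were limma voom (limma 3.58.1), DESeq2 1.42.0 with its default settings, other size factors, no filter, covariates and libraries left out. The fitting steps were tested on simulated counts, without replicate 27 and with the same spread for all genes. That spread was below the common spread of these data, so the test checks the code and not the power of these fits. The named genes are the 10 members, 6 adipocyte genes, the 3 genes of each pathway list with the smallest p of the joint test, and the 8 genes most like the members; other genes were chosen after their values were seen. That rule also gave genes whose values are not reported here. The members and lists were chosen with earlier results of these data known.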

Additional observations from a re-analysis of the deposited data

Results flagged for a closer look

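One library of the D10000 diet, replicate 27, lay far from the other 8 of its group in 6 of the 9 genes that passed the filter. Its gap to the next library, as a share of the whole range of the group on a log2 scale of CPM plus 0.5, was 0.7275 for DGAT1 (128 CPM), 0.6185 for FASN (4870 CPM) and 0.607 for SCD (8332 CPM). It was 0.5726 for ACLY (843 CPM), 0.5634 for ME1 (156 CPM) and 0.5042 for ELOVL5 (641 CPM), each over the limit of 0.493 for 9 samples. Of 27 combinations of gene and diet 6 were picked out, all 6 by this library. Chance picks out about 1 in 20 of independent combinations. These 6 share 1 library that was already known to stand apart, so their number is a description and not a test. The same library had 15596 CPM of adipocyte genes, against 858 to 2021 CPM in the other 24, and its part in these values was not tested.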

How the results depend on the processing

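In the 3 diet contrasts the 0 calls stayed at 0 under every alternative run, and limits on this are the spread between pigs, libraries of 3310507 to 15177976 reads, and 1 library with high adipocyte transcripts in D10000. The median of the 9 fitted values was 1.63 for D10000 against control and 1.53 for D10000 against D5000. These were 1.80 and 1.69 with RLE size factors, and 1.63 and 1.54 without the filter. They were 1.98 and 1.69 without the libraries with few assigned reads. The standard deviation of the members' mean log2 CPM within diets was 0.71 on average, a spread that replicate 27 widens. The cause of the following changes was not tested. No paired analysis was possible because animal numbers are not shared between diets and litters are not in the labels.

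For D10000 against control the median of the 9 fitted values was 0.42 with DESeq2 and 0.71 with limma voom. DESeq2 ran with its default settings, which replace outlying counts in groups of this size, so its fit need not keep every count of replicate 27. It gave −0.026 for DGAT1 and 0.48 for SCD, against −0.026 and 0.49 by edgeR without replicate 27. For ME1 it gave 0.66, against −0.22. Which counts were replaced was not examined. It was 0.52 with the adipocyte mean as covariate and 1.13 with the liver mean as covariate. Without D10000 replicate 27 it was 0.27 with the adipocyte mean and 0.20 with the liver mean. Leaving out 1 library each gave 0.35, without D10000 replicate 27, to 1.82. For D10000 against D5000 it was 0.020 with DESeq2, 0.37 with limma voom, −0.081 with the adipocyte mean, 0.079 with the adipocyte mean without replicate 27, 0.74 with the liver mean and 0.013 with the liver mean without replicate 27, and 0.0070, without D10000 replicate 27, to 1.72 with 1 library left out. For D5000 against control the median was 0.35, 0.14 with the assigned share, 0.59 with the adipocyte mean, and, without replicate 27, 0.19 with the adipocyte mean and 0.17 with the liver mean.

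Signs turned for uncalled values in D10000 against control: ME1 had −0.16 with the adipocyte mean, −0.10 with it and without replicate 27, and −0.24 with the liver mean without replicate 27, and DGAT1 had −0.026 with DESeq2, −0.015 with the adipocyte mean without replicate 27 and −0.049 with the liver mean without it. With 1 library left out ME1 ran from −0.22 to 0.74 and DGAT1 from −0.026 to 1.82, both lowest without D10000 replicate 27. In D10000 against D5000 SCD had −0.44 with DESeq2, −0.46 with the adipocyte mean, −0.44 with it and without replicate 27, −0.48 with the liver mean without replicate 27, and −0.43 to 2.36 with 1 library left out. ACLY had −0.30 with the adipocyte mean, −0.10 with it and without replicate 27 and −0.019 with the liver mean without replicate 27, and FASN −0.069 with the adipocyte mean. In D5000 against control DGAT1 had −0.0018 with limma voom and −0.012 with the liver mean without replicate 27, and −0.16 to 0.22 with 1 library left out. FASN ran from −0.022 to 0.19 and ACLY from −0.10 to 0.62.

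The slope on adipocyte genes called 1 gene, and 932 with all 25 libraries (7 of the 9 members), 3 with limma voom, 2 with the assigned share as covariate, 2 without the filter, and 1 to 2 with 1 library left out. For ACACA the slope was 0.74 with all 25 libraries, 0.65 with the assigned share, 0.20 with the muscle fibre mean, 0.22 with the liver mean and −0.31 to 0.025 with 1 library left out. For ELOVL5 it was 0.51 with all 25 libraries, 0.24 with the share and 0.10 with the liver mean, for ELOVL6 0.24, 0.29 and 0.12, and for SREBF1 0.0013 with the share. With 1 library left out SREBF1 ran from −0.20 to 0.025, SCD from −0.31 to 0.46, ACLY from −0.068 to 0.76 and FASN from −0.10 to 0.17.

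The slope on liver genes, added after the data were seen, called 1947 genes, 1154 with the adipocyte mean and 419 with the assigned share as covariate (0 of the 9 members). With all 25 libraries the slope was −0.62 for DGAT1, −0.88 for SCD, −0.52 for ACACA, −0.24 for ELOVL5 and −0.77 for FASN, and SCD had −0.30 with the share. Of the values for single genes under settings other than a single library left out, 256 kept their sign and their side of the threshold, 33 changed sign, 7 passed the threshold only under the alternative and 4 passed it only in the fit as reported.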
